A study of Mus musculus with 37 samples.

Results

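Stromal and membrane-type matrix metalloproteinases are a group of 7 named genes, Mmp2, Mmp11, Mmp14, Mmp15, Mmp19, Mmp23 and Mmp28, picked out by name. They were chosen with earlier results of these data known. Each was taken as the transcript cluster annotated to that symbol alone, or the one with the highest mean if there were several. Of the 7, 6 were measured, each with 1 such cluster, among 19938 genes in all. Mmp15, which encodes the second membrane-type enzyme, was not analysed here. Colon RNA came from 37 mice, with 1 array per mouse, after dextran sodium sulphate (DSS), a polymer given by mouth that injures the colonic epithelium and causes colitis. Mice lacking Timp1, the secreted tissue inhibitor of metalloproteinases 1, carried the germline allele B6.129S4-Timp1tm1Pds/J and are called KO, and C57BL/6J mice are called wild type (WT). The acute phase held 6 KO mice with DSS, 5 WT mice with DSS, 3 KO controls and 3 WT controls. The chronic phase held 5 KO mice with DSS, 5 WT mice with DSS, 5 KO controls and 5 WT controls. The labels give no age, sex, dose or number of days, and both genotypes received DSS in both phases.

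Matrix metalloproteinases are zinc enzymes that cut collagens, other matrix proteins and cell surface proteins. They are made as inactive precursors, and the TIMP proteins block the active enzymes. Mmp14 encodes MT1-MMP, a membrane-anchored collagenase that TIMP2 inhibits and TIMP1 inhibits poorly. It activates the Mmp2 product, gelatinase A, at the cell surface, with TIMP2 serving as the bridge between both enzymes. The convertase furin cuts the precursor of MT1-MMP and of stromelysin-3, the Mmp11 product. In gut, Mmp2, Mmp11 and Mmp14 are known mainly from fibroblasts and other stromal cells, and Mmp28, encoding epilysin, from epithelial cells.

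The upstream sequences of 3 members, are printed to show motifs in which they differ from the promoters of many other metalloproteinases. Mmp14 and Mmp11 were lower in KO than in WT mice with acute DSS, and Mmp28 rose in WT mice with chronic DSS. RefSeq tables held an entry for 4 of the 6 measured members, and Mmp2 and Mmp19 are named only. The sequences are the 250 bases before the start of Mmp14 (GRCm38.p6, chr14:54431348-54431597, plus strand), Mmp11 (chr10:75932503-75932752, minus strand) and Mmp28 (chr11:83463041-83463290, minus strand), 5′ to 3′ in the direction of the gene. Capitals mark GGGCGG or its reverse complement, the core of a GC box.
Mmp14: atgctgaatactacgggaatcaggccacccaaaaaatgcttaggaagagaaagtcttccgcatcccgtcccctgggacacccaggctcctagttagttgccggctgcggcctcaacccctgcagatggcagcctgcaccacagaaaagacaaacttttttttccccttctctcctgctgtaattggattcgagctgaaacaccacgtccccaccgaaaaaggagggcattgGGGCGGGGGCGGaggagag
Mmp11: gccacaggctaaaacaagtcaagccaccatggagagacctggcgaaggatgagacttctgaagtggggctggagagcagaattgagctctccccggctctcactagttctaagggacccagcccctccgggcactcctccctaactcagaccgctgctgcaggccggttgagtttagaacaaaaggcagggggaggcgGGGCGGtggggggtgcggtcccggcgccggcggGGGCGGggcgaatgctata
Mmp28: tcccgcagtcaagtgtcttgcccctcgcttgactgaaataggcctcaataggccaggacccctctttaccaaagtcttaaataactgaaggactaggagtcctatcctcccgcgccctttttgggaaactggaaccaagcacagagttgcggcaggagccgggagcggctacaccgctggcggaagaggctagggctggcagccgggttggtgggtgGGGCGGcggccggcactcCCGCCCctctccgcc
GGGCGG was searched on both strands and was found at 2 places in each of these 3 promoters, which in Mmp14 lie end to end. It was not found in the 2 overlapping windows listed for Mmp23. Those windows lie inside the span of the Mmp23 gene (chr4:155650655-155654539), while the windows of the 3 printed genes lie next to the gene start. By comparison, 32.7% of 32851 RefSeq promoters of the same length held it, as did 2 of 13 other metalloproteinase genes. TATAAA, the TATA box core, was in none of the 4 members, in 8 of the 13 other metalloproteinase genes and in 12.4% of all promoters. TGANTCA, the letters of an AP-1 site, was likewise in none of the 4 members, in 8 of the 13 other genes and in 6.75% of all promoters. The share of G and C was 55.2% upstream of Mmp14, 63.2% for Mmp11 and 62.0% for Mmp28, with a median of 52.4% over all promoters. A match describes the letters in this window and is not a measured binding site.

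Values are log2 signals, on which a difference of 1 is a doubling. Timp1 itself lay between 6.83 and 8.68 in all 19 KO arrays, DSS included, and between 6.99 and 7.76 in the 8 WT controls. Among acute controls it was 7.12, 6.97 and 6.94 in KO and 7.56, 7.56 and 7.76 in WT mice, without overlap. This difference of -0.62 did not pass in limma (adjusted p = 0.608), and 25.8% of all genes likewise did not overlap there. Among chronic controls it lay between 6.84 and 7.46 in KO and between 6.99 and 7.28 in WT mice, with overlap. In WT mice with acute DSS the Timp1 signals were 11.09, 10.94, 12.19, 9.47 and 10.05, above every KO array. The mean signal of 14 epithelial markers lay between 12.26 and 12.69 in the KO acute DSS arrays and between 10.60 and 12.58 in the WT acute DSS arrays. Replicates 1 and 3 of the WT acute DSS group had the 2 lowest epithelial means, 11.63 and 10.60, and stand apart from all other arrays on this measure. Animal numbers in the titles fall into 4 series, treated here as possible batches. Series 1 held every WT acute mouse and KO acute DSS replicates 1 to 3, and series 2 the KO acute controls and KO acute DSS replicates 4 to 6. Series 3 held the WT chronic DSS mice and WT chronic control replicates 1 to 3, and series 4 every KO chronic mouse and WT chronic control replicates 4 and 5. In whole colon, fewer cells of a type and less RNA per cell cannot be told apart.

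**Figure D1:**
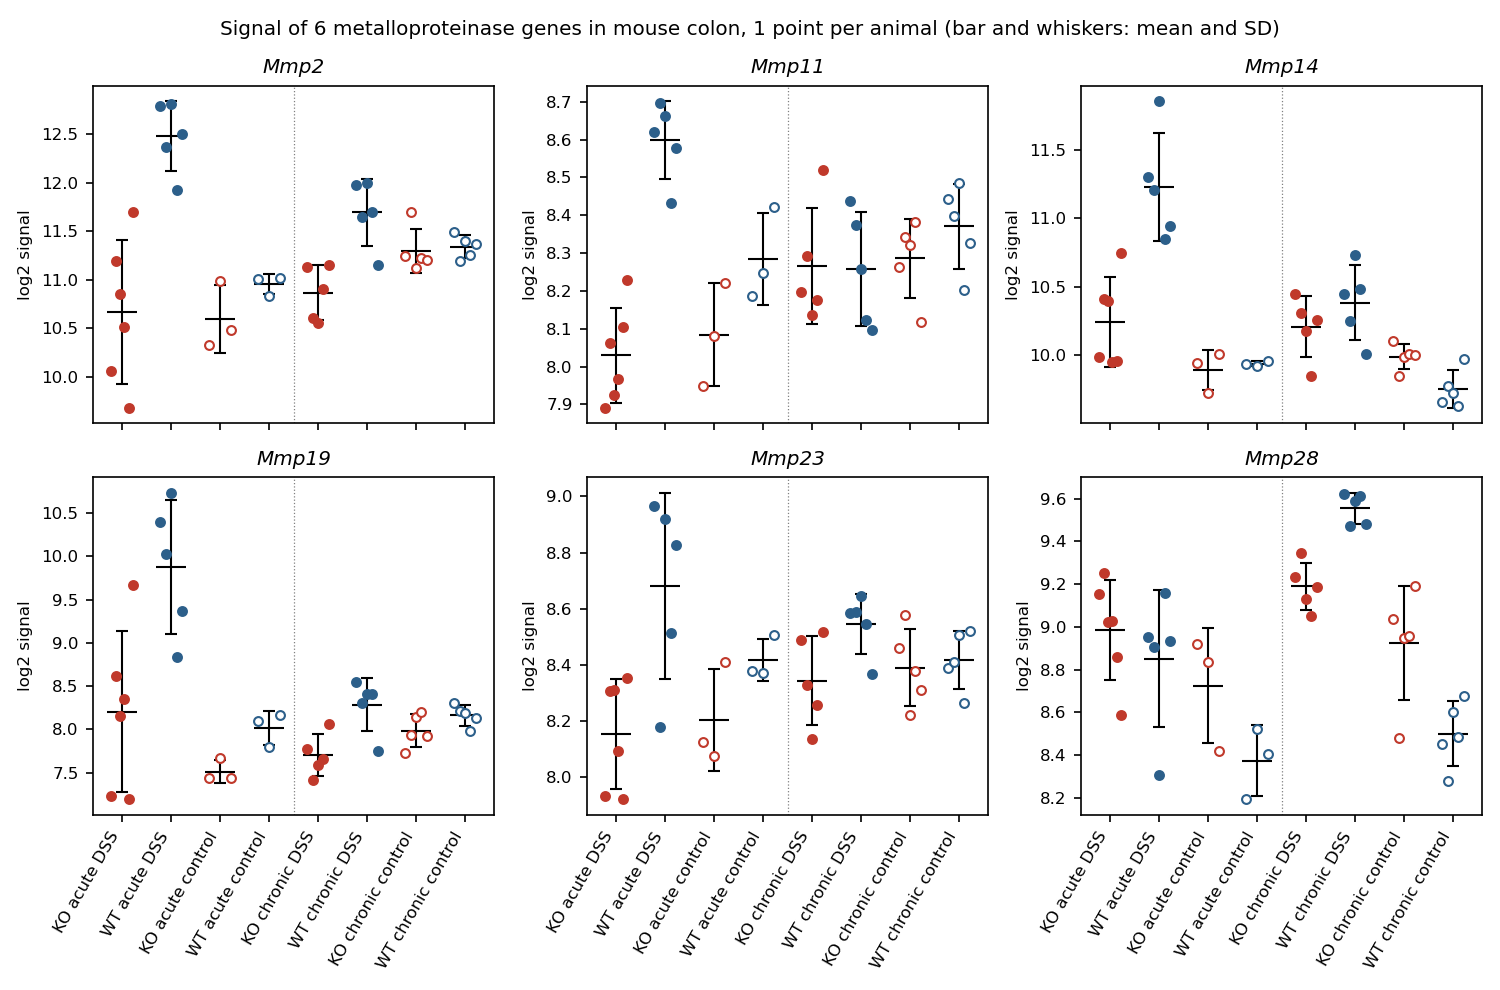
Log2 signal (vertical axis) of the 6 measured metalloproteinases in each of the 37 arrays, by group (horizontal axis), with KO left of WT and DSS left of control. Points are arrays, filled for DSS and open for control, red for KO and blue for WT, and bars with whiskers are group means and SD. Mmp2 and Mmp14 in the 5 WT acute DSS arrays lie above every KO acute DSS array, and Mmp28 is highest in the WT chronic DSS arrays.

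In acute colitis most of these genes rose in WT mice, and most were lower in KO than in WT mice with DSS. Mmp2, Mmp11, Mmp14, Mmp19 and Mmp28 rose with DSS in WT mice, and Mmp2, Mmp11, Mmp14, Mmp19 and Mmp23 were lower in KO than in WT mice with DSS. None of the 6 passed the test of DSS against control in KO mice. Unless another fit or set of tests is named, adjusted p-values are Benjamini-Hochberg values over 19938 genes from 1 limma model. The threshold is 0.05 throughout.

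Mmp2, gelatinase A, ran in the KO acute DSS arrays from 9.68 through a median of 10.68 up to 11.70. In the WT acute DSS arrays it was 12.79, 12.37, 12.81, 11.93 and 12.50. Control signals were 10.33, 10.99 and 10.48 in KO mice and 11.01, 10.84 and 11.02 in WT mice. The WT acute DSS arrays stood above all arrays of the other 3 acute groups, whereas KO arrays with DSS spread on both sides of their controls. With DSS, KO mice were lower than WT mice by a log2 difference of -1.81 ± 0.23 (SE), 0.285 times the WT signal (adjusted p = 1.52e-06). The DSS effect was 0.07 ± 0.27 in KO mice (adjusted p = 0.934) and 1.52 ± 0.28 in WT mice, a 2.87-fold rise (adjusted p = 6.56e-05). These effects differed by -1.46 ± 0.39 (adjusted p = 0.0145 for the genotype by DSS interaction).

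Mmp14, the membrane-bound activator of gelatinase A, was also highest in the WT acute DSS arrays. Its signal in KO acute DSS arrays had a lowest value of 9.95, a median of 10.19 and a highest value of 10.74. The WT acute DSS arrays read 11.30, 11.20, 11.85, 10.85 and 10.95. KO controls read 9.94, 9.72 and 10.00, and WT controls 9.93, 9.92 and 9.96. The KO and WT arrays with DSS did not overlap, and the KO arrays with DSS overlapped their own controls. The difference of KO from WT with DSS was -0.99 ± 0.15, or 0.503 times (adjusted p = 1.02e-05). DSS changed the signal by 0.35 ± 0.17 in KO mice (adjusted p = 0.303) and by 1.29 ± 0.18 in WT mice, 2.45-fold (adjusted p = 1.57e-06), and the interaction was -0.94 ± 0.24 (adjusted p = 0.0127).

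Timp2, which is both the inhibitor and the bridge in this activation step, was also lower in KO than in WT mice with acute DSS. In KO acute DSS arrays it ran from 9.78 through a median of 10.35 up to 11.10, against 11.92, 11.46, 12.03, 11.31 and 11.71 in WT acute DSS arrays. It was 10.63, 10.75 and 10.72 in KO controls and 10.95, 10.71 and 10.89 in WT controls. No KO array with DSS reached the lowest WT array with DSS. KO mice were lower by a difference of -1.36 ± 0.15 (adjusted p = 2.11e-07), and the interaction was -1.21 ± 0.24 (adjusted p = 0.00288), with a DSS effect of -0.38 ± 0.17 in KO mice (adjusted p = 0.265) and 0.84 ± 0.18 in WT mice (adjusted p = 0.000325). Furin, the convertase of the MT1-MMP precursor, was lower in KO than in WT mice with DSS by -0.35 ± 0.08 (adjusted p = 0.000859). Reck, a membrane-anchored inhibitor of MT1-MMP and gelatinases, differed by -0.87 ± 0.16 (adjusted p = 8.53e-05), and Timp3, the matrix-bound inhibitor, by -0.99 ± 0.23 (adjusted p = 0.00124). The interactions of these 3 genes missed the threshold, at -0.31 for Furin (adjusted p = 0.104), -0.61 for Reck (adjusted p = 0.114) and -0.63 for Timp3 (adjusted p = 0.286). Timp4 differed by -0.06 between the genotypes with DSS (adjusted p = 0.882).

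Mmp11, stromelysin-3, had signals close together within each acute group. Its signal was 8.03 ± 0.13 in KO acute DSS arrays (SD, n = 6) and 8.60 ± 0.10 in WT acute DSS arrays (SD, n = 5). Controls averaged 8.08 ± 0.14 in KO and 8.28 ± 0.12 in WT mice (SD, n = 3 each). The highest KO array with DSS, at 8.23, lay below the lowest WT array with DSS, at 8.43. KO mice were lower with DSS by -0.57 ± 0.08 (0.674 times, adjusted p = 3.52e-06). The DSS effect was -0.05 ± 0.09 in KO mice (adjusted p = 0.809) and 0.31 ± 0.09 in WT mice (1.24-fold, adjusted p = 0.00759), and the interaction of -0.37 ± 0.13 missed the threshold (adjusted p = 0.0574).

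Mmp19 encodes a secreted enzyme that cuts basement membrane proteins. It had the largest acute rise of the 6 members in WT mice, and the widest spread among the DSS arrays of each genotype. The KO acute DSS arrays ran from 7.19 through a median of 8.25 up to 9.67, and the WT acute DSS arrays read 10.40, 10.03, 10.73, 8.83 and 9.37. KO controls read 7.43, 7.67 and 7.44, and WT controls 8.09, 7.80 and 8.17. KO replicate 6, at 9.67, lay above 2 of the 5 WT arrays, so the DSS groups overlapped. The difference of KO from WT with DSS was -1.67 ± 0.30 (0.314 times, adjusted p = 8.46e-05). DSS changed the signal by 0.69 ± 0.35 in KO mice (adjusted p = 0.315) and by 1.85 ± 0.36 in WT mice (3.62-fold, adjusted p = 0.000126). The interaction of -1.16 ± 0.50 did not pass (adjusted p = 0.117).

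Mmp23, which encodes a membrane-inserted enzyme with a cysteine-rich domain in place of the usual haemopexin domain, averaged 8.15 ± 0.20 in KO acute DSS arrays (SD, n = 6) and 8.68 ± 0.33 in WT acute DSS arrays (SD, n = 5). Its controls averaged 8.20 ± 0.18 in KO and 8.42 ± 0.08 in WT mice (SD, n = 3 each). WT replicate 2, at 8.18, lay within the KO range. KO mice were lower with DSS by -0.53 ± 0.11 (0.694 times, adjusted p = 0.000431). DSS against control gave -0.05 ± 0.13 in KO mice (adjusted p = 0.887) and 0.26 ± 0.13 in WT mice (adjusted p = 0.106).

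Mmp28, epilysin, was the 1 member that did not pass between KO and WT mice with acute DSS. Its signal was 8.98 ± 0.24 in KO acute DSS arrays (SD, n = 6) and 8.85 ± 0.32 in WT acute DSS arrays (SD, n = 5), and 8.73 ± 0.27 in KO controls and 8.37 ± 0.17 in WT controls (SD, n = 3 each). The KO and WT mice with DSS differed by 0.13 ± 0.13 (adjusted p = 0.456). DSS raised it in WT mice by 0.48 ± 0.15, or 1.39-fold (adjusted p = 0.0121), and the effect in KO mice was 0.26 ± 0.15 (adjusted p = 0.389), or 0.10 within animal series 2 (adjusted p = 0.865). The WT call was lost without WT acute control replicate 1 (adjusted p = 0.0743). WT replicate 3, with the lowest epithelial mean of all arrays, had the lowest Mmp28 signal of the WT acute DSS group. It read 8.31, against 8.91 to 9.16 in the other 4 arrays. Replicate 1, with the next lowest epithelial mean, read 8.95. A relation of Mmp28 to the epithelial markers was not tested.

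**Figure D2:**
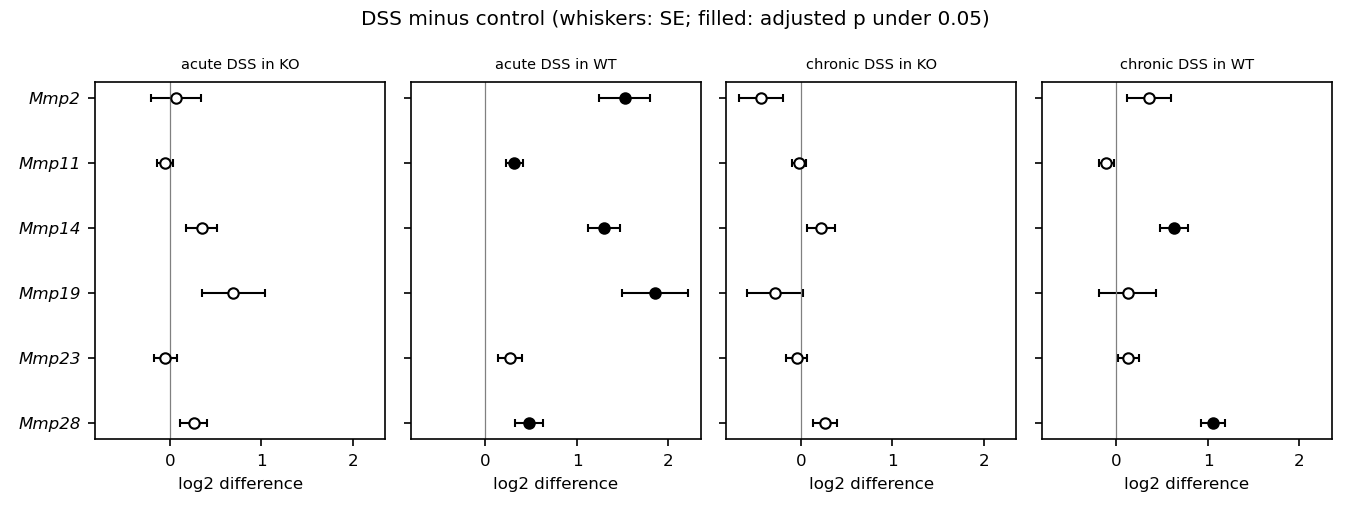
Difference of DSS from control on the log2 scale (horizontal axis) for each of the 6 metalloproteinases (rows), by genotype and phase. Points are limma estimates, whiskers are SE, and filled points passed at an adjusted p under 0.05. In the acute phase 5 points are filled for WT and none for KO, and in the chronic phase 2 are filled for WT and none for KO.

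As counts, 5 of 6 members rose with acute DSS in WT mice, in a comparison where 41.2% of all genes passed, 19.4% higher and 21.8% lower. The members' median difference was 0.89, against 0.01 over all genes. Signals of DSS and control arrays did not overlap for 4 of 6 members, Mmp2, Mmp11, Mmp14 and Mmp19, against 39.1% of all genes. In KO mice, acute DSS passed the test in 0 of 6 members, with 1 at an unadjusted p under 0.05 (Mmp14), where 1.12% of all genes passed, 0.266% higher and 0.853% lower. DSS and control arrays overlapped for each of the 6, and did not for 6.47% of all genes. Their median difference there was 0.16. Within animal series 2, which holds 3 KO mice with DSS and all 3 KO controls, no gene passed, whether a member or not. The lack of a passing member in that fit therefore decides nothing about the members. Their differences there lay between -0.08 for Mmp23 and 0.89 for Mmp19.

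With acute DSS, 5 of 6 members were lower in KO than in WT mice, where 30.9% of all genes passed, 15.8% higher and 15.2% lower, and the median was -0.78 against 0.02 over all genes. For 3 members, Mmp2, Mmp11 and Mmp14, the KO and WT arrays did not overlap, as held for 6% of all genes. Within animal series 1, which holds 3 KO and all 5 WT mice with DSS, the differences were -1.78 for Mmp2 (adjusted p = 0.00943), -0.64 for Mmp11 (adjusted p = 0.00514), -0.96 for Mmp14 (adjusted p = 0.0273) and -1.87 for Mmp19 (adjusted p = 0.035). For Mmp23 the value there was -0.50 and the call ended (adjusted p = 0.114). In that fit 3107 of 19938 genes passed. Without WT acute DSS replicates 1 and 3, the same 5 members were lower in KO mice with DSS and the same 5 rose with DSS in WT mice. The comparisons of DSS with control in WT mice and of KO with WT mice with DSS share the WT acute DSS arrays, so their calls are not independent of each other.

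Among acute controls, 0 of 6 members passed between KO and WT mice, with 1 at an unadjusted p under 0.05 (Mmp28, 0.35 ± 0.17, adjusted p = 0.372), where 1.12% of all genes passed, 0.341% higher and 0.777% lower. Mmp19 was the 1 member whose control arrays did not overlap between genotypes, at -0.51 ± 0.40 (adjusted p = 0.655), as was so for 25.8% of all genes. KO and WT acute controls lie in different animal series, so series can be taken into account only through the KO mice with DSS, which lie in both. With series as a covariate the values were -0.91 for Mmp19 (adjusted p = 0.463), 0.67 for Mmp28 (adjusted p = 0.138) and -0.34 for Mmp11 (adjusted p = 0.229, against -0.20 without it), and none of the 6 passed.

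**Figure D3:**
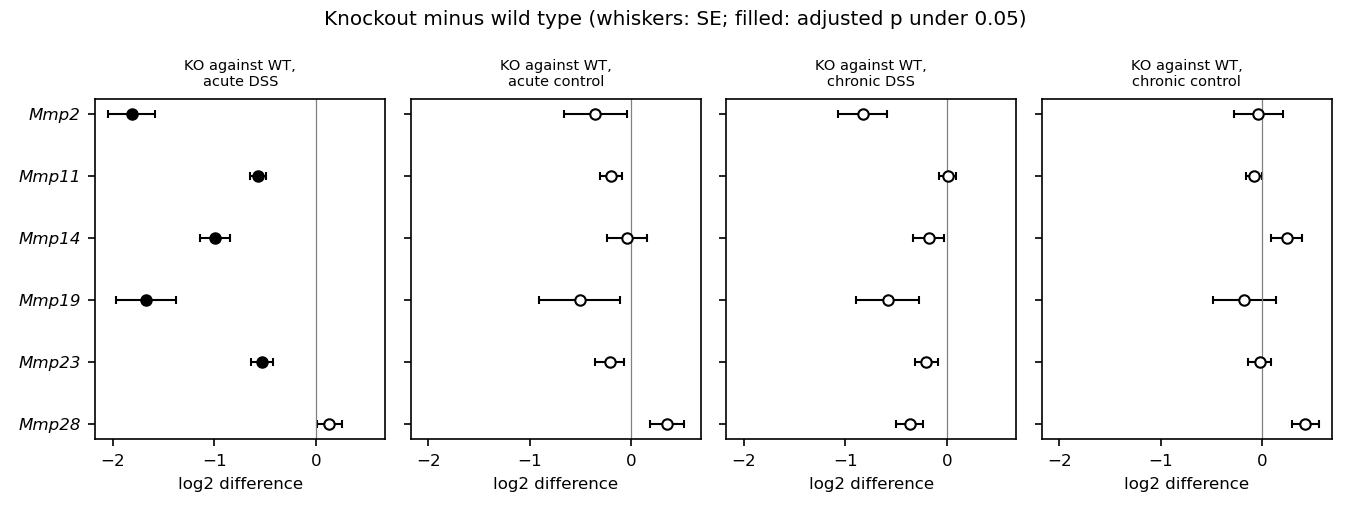
Difference of KO from WT on the log2 scale (horizontal axis) for each of the 6 metalloproteinases (rows), among DSS and control mice of each phase. Negative values are lower in KO, whiskers are SE, and filled points passed at an adjusted p under 0.05. All 5 filled points, Mmp2, Mmp11, Mmp14, Mmp19 and Mmp23, are among mice with acute DSS and are negative.

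The interaction of genotype and acute DSS passed for 2 of 6 members, Mmp2 and Mmp14, both negative, where 12.3% of all genes passed, 6.51% higher and 5.75% lower. All 6 differences were negative, with a median of -0.66 against 0.01 over all genes. With animal series as a covariate Mmp2 gave -1.49 (adjusted p = 0.036) and Mmp14 -0.97 (adjusted p = 0.0315). Both calls ended when WT acute DSS replicates 1 and 3 were left out together, at -1.24 for Mmp2 (adjusted p = 0.0619) and -0.71 for Mmp14 (adjusted p = 0.0534), and when 4 acute groups alone were fitted (adjusted p = 0.102 for Mmp2 and 0.0810 for Mmp14). The count was 4 without WT acute DSS replicate 4 and 4 without KO acute DSS replicate 6.

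Genes of the wider system were counted in the same comparisons. Of 16 other metalloproteinases, 10 rose with acute DSS in WT mice and 0 in KO mice, and 8 were lower in KO than in WT mice with DSS. Of 14 matrix substrates, such as the fibrillar and basement membrane collagens, 14 were lower in KO than in WT mice with DSS (median -1.14), and 13 rose with DSS in WT mice (median 1.21). Of 12 inhibitors and activators, 7 were lower and 1 was higher in KO than in WT mice with DSS. Among all genes, 19.4% rose with acute DSS in WT mice and 0.266% in KO mice. With DSS, 15.2% of all genes were lower and 15.8% higher in KO than in WT mice.

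Markers of several cell types also differed between KO and WT mice with acute DSS. Lower in KO were 8 of 10 fibroblast, 7 of 7 endothelial, 6 of 8 macrophage, 5 of 8 smooth muscle and 4 of 8 neutrophil markers, and 5 of 14 epithelial markers were higher. Among all genes, 15.2% were lower and 15.8% higher. Mean log2 signal of the fibroblast list lay between 8.46 and 9.55 in KO acute DSS arrays and between 9.63 and 10.33 in WT acute DSS arrays, without overlap. It lay between 8.90 and 9.10 in KO acute controls and between 9.13 and 9.31 in WT acute controls. The ranges for macrophage markers were 7.98 to 9.32 in KO and 9.10 to 10.42 in WT mice with DSS, and those for endothelial markers 8.50 to 10.00 in KO and 9.49 to 10.55 in WT mice with DSS. With DSS in WT mice, 6 of 10 fibroblast markers rose and 9 of 14 epithelial markers fell, where 19.4% of all genes rose and 21.8% fell. The part of these markers in the differences of the metalloproteinases was not tested.

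**Figure D4:**
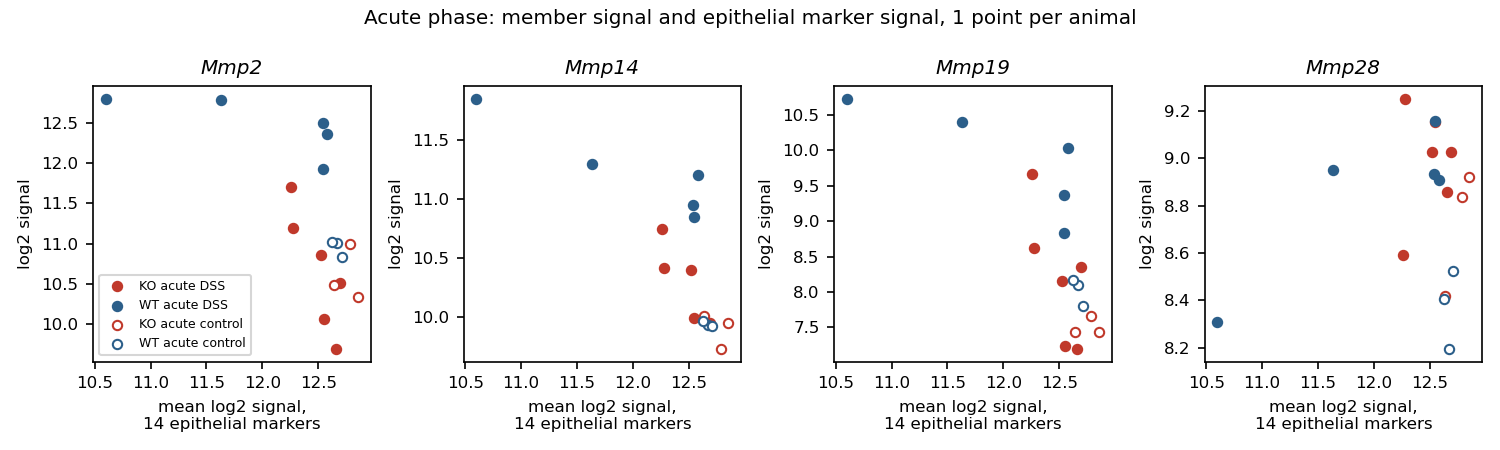
Log2 signal of metalloproteinases (vertical axis) against the mean log2 signal of 14 epithelial markers (horizontal axis) in the acute arrays. Points are arrays, filled for DSS and open for control, red for KO and blue for WT. WT acute DSS replicates 1 and 3 lie at epithelial means of 11.63 and 10.60, left of the other arrays.

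In chronic colitis Mmp14 and Mmp28 rose in WT mice, and no member passed in KO mice. Mmp28 read 9.23, 9.35, 9.13, 9.05 and 9.19 in KO chronic DSS arrays and 9.62, 9.47, 9.59, 9.61 and 9.48 in WT chronic DSS arrays. It read 9.04, 8.48, 8.95, 8.96 and 9.19 in KO chronic controls and 8.45, 8.28, 8.60, 8.49 and 8.68 in WT chronic controls. The WT arrays with DSS stood above every other array of the study, and the WT controls overlapped the KO controls through KO replicate 2. DSS raised Mmp28 in WT mice by 1.06 ± 0.13, or 2.08-fold (adjusted p = 2.31e-06), and the effect in KO mice was 0.27 ± 0.13 (adjusted p = 0.218). The interaction was -0.79 ± 0.19 (adjusted p = 0.0451).

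Mmp14 read 10.44, 10.30, 10.17, 9.85 and 10.26 in KO chronic DSS arrays and 10.45, 10.25, 10.73, 10.48 and 10.00 in WT chronic DSS arrays. Controls read 10.10, 9.84, 9.99, 10.01 and 10.00 in KO mice and 9.66, 9.78, 9.73, 9.63 and 9.97 in WT mice. In WT mice the DSS and control arrays did not overlap. The DSS effect was 0.22 ± 0.15 in KO mice (adjusted p = 0.415) and 0.63 ± 0.15 in WT mice, 1.55-fold (adjusted p = 0.00459), and the interaction of -0.42 ± 0.22 did not pass (adjusted p = 0.36).

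Mmp2 in the chronic phase read 11.13, 10.60, 10.56, 10.90 and 11.15 in KO mice with DSS and 11.98, 11.65, 12.00, 11.70 and 11.15 in WT mice with DSS. Chronic controls read 11.24, 11.70, 11.13, 11.23 and 11.21 in KO mice and 11.49, 11.19, 11.40, 11.26 and 11.37 in WT mice. The highest KO array with DSS touched the lowest WT array with DSS, replicate 5. The difference of KO from WT with DSS, -0.83 ± 0.24, missed the threshold (adjusted p = 0.0576), and passed without WT chronic DSS replicate 5 or KO chronic DSS replicate 1. The DSS effects were -0.43 ± 0.24 in KO mice (adjusted p = 0.284) and 0.36 ± 0.24 in WT mice (adjusted p = 0.376).

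The 3 remaining members showed no passing chronic difference. Mmp11 averaged 8.26 ± 0.15 in both KO and WT chronic DSS arrays, and 8.29 ± 0.10 in KO and 8.37 ± 0.11 in WT chronic controls (SD, n = 5 each). Mmp19 averaged 7.70 ± 0.24 in KO and 8.29 ± 0.31 in WT chronic DSS arrays, and 7.99 ± 0.19 in KO and 8.17 ± 0.12 in WT chronic controls (SD, n = 5 each). Mmp23 averaged 8.34 ± 0.16 in KO and 8.55 ± 0.11 in WT chronic DSS arrays, and 8.39 ± 0.14 in KO and 8.42 ± 0.10 in WT chronic controls (SD, n = 5 each). The KO minus WT difference with DSS was -0.58 ± 0.31 for Mmp19 (adjusted p = 0.337) and -0.20 ± 0.11 for Mmp23 (adjusted p = 0.372).

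As counts, 2 of 6 members rose with chronic DSS in WT mice, where 14.4% of all genes passed, 5.79% higher and 8.58% lower. For both, DSS and control arrays did not overlap, as held for 15% of all genes. Within animal series 3, with 5 DSS and 3 control arrays, Mmp14 differed by 0.66 (adjusted p = 0.0126) and Mmp28 by 1.11 (adjusted p = 8.08e-05). In that fit 3090 of 19938 genes passed. In KO mice, 0 of 6 members passed with chronic DSS and 0 had an unadjusted p under 0.05, where 7.94% of all genes passed, 2.47% higher and 5.47% lower. Arrays overlapped for each of the 6, and did not for 8.35% of all genes. Between KO and WT mice with chronic DSS, 0 of 6 passed and 2 had an unadjusted p under 0.05, Mmp2 and Mmp28, where 2.48% of all genes passed, 1.18% higher and 1.3% lower. Mmp28 there differed by -0.37 ± 0.13 (adjusted p = 0.13), and its KO and WT arrays did not overlap, as held for 3.15% of all genes. Genotype is tied to animal series in that comparison except through the WT controls, and with series as a covariate the values were -0.78 for Mmp2 (adjusted p = 0.71) and -0.50 for Mmp28 (adjusted p = 0.565).

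Among chronic controls 0 of 6 members passed between genotypes, with 1 at an unadjusted p under 0.05, where 0.1% of all genes passed, 0.0702% higher and 0.0301% lower. Arrays overlapped for each of the 6, and did not for 2.46% of all genes. That member was Mmp28, at 0.42 ± 0.13 (adjusted p = 0.225), and within animal series 4 at 0.34 (adjusted p = 0.528). It passed without KO chronic control replicate 2, which made the count 1. The chronic interaction passed for 1 of 6 members, Mmp28, where 0.421% of all genes passed, 0.271% higher and 0.15% lower. The call ended in 15 of 20 fits that left out 1 array, with values between -0.90 and -0.72 and adjusted p up to 0.0994. With animal series as a covariate it was -0.84 (adjusted p = 0.0303).

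With chronic DSS in WT mice, 5 of 8 neutrophil markers rose and 5 of 16 other metalloproteinases rose, as did 1 of 10 fibroblast and 1 of 14 epithelial markers, and 2 fibroblast markers fell. Among all genes, 5.79% rose and 8.58% fell there. The neutrophil list averaged between 7.21 and 8.91 in WT chronic DSS arrays and between 7.10 and 7.29 in WT chronic controls. This mean was 8.90, 8.91 and 8.85 in WT chronic DSS replicates 1, 3 and 4, and 7.34 and 7.21 in replicates 2 and 5. Mmp28 was 9.62, 9.59 and 9.61 in replicates 1, 3 and 4, and 9.47 and 9.48 in replicates 2 and 5. The other DSS groups did not share this order. WT acute DSS replicate 3 had the highest neutrophil mean of its group, 10.24, and the lowest Mmp28 signal, 8.31. Among KO chronic DSS arrays, replicate 1 had the highest neutrophil mean, 7.94, and replicate 2 the highest Mmp28 signal, 9.35. Among KO acute DSS arrays, replicate 2 was highest in both, at 9.07 and 9.25. A relation of Mmp28 to the neutrophil markers was not tested. Of the inhibitors, Timp1 rose in WT mice with chronic DSS by 1.28 (adjusted p = 0.01), Timp4 fell by 1.33 (adjusted p = 0.000396) and Reck fell by 0.48 (adjusted p = 0.0409), and Timp2 differed by -0.12 (adjusted p = 0.687).

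The chronic and acute DSS effects were compared directly within each genotype. In WT mice the chronic effect was smaller than the acute one for Mmp2 (difference -1.17 ± 0.37, adjusted p = 0.0272), Mmp11 (-0.43 ± 0.12, adjusted p = 0.0172), Mmp14 (-0.66 ± 0.23, adjusted p = 0.0469) and Mmp19 (-1.73 ± 0.47, adjusted p = 0.0121). For Mmp28 it was larger, by 0.58 ± 0.20 (adjusted p = 0.0444). These are 5 of 6 members, 4 lower and 1 higher, where 17% of all genes passed, 7.71% lower and 9.3% higher. Mmp23 gave -0.13 ± 0.17 (adjusted p = 0.635). With animal series as a covariate the Mmp14 call ended, at -0.63 (adjusted p = 0.0833), and the other 4 passed. Of these calls, Mmp19 was kept in all 18 fits that left out 1 array, Mmp11 was lost in 2, Mmp2 in 5, Mmp28 in 11 and Mmp14 in 14. Without WT acute control replicate 2, 1 member passed. With WT acute DSS replicates 1 and 3 both left out, 0 of 6 passed. In KO mice 0 of 6 passed and 1 had an unadjusted p under 0.05 (Mmp19, -0.98 ± 0.46, adjusted p = 0.422), where 0.01% of all genes passed, 0.00502% higher and 0.00502% lower. Acute and chronic mice belong to different animal series, so phase and series cannot be told apart as levels, while each effect was taken against controls of its own phase.

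**Figure D5:**
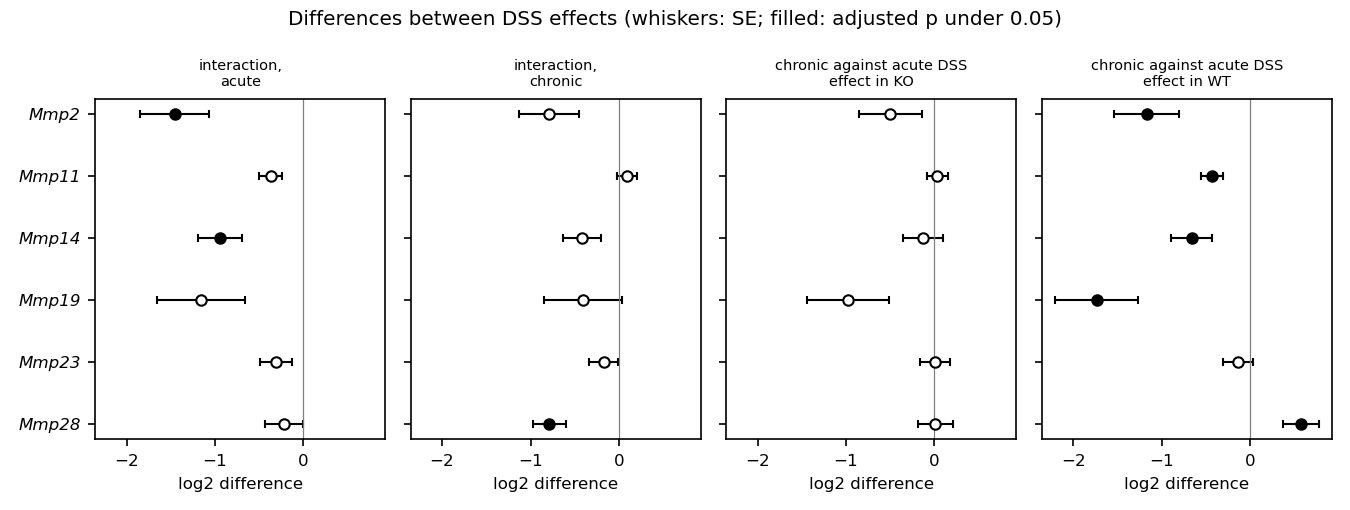
Differences between DSS effects on the log2 scale (horizontal axis) for the 6 metalloproteinases (rows), as KO minus WT effect in each phase and as chronic minus acute effect in each genotype. Points are limma estimates, whiskers are SE, and filled points passed at an adjusted p under 0.05. Filled points are Mmp2 and Mmp14 for the acute genotype difference, Mmp28 for the chronic one, and Mmp2, Mmp11, Mmp14, Mmp19 and Mmp28 for the phase difference in WT mice.

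Across all 8 groups, WT acute DSS had the highest mean of Mmp2, Mmp11, Mmp14, Mmp19 and Mmp23, and WT chronic DSS the highest mean of Mmp28. For Mmp14, Mmp19 and Mmp28 this top group did not overlap with the next one in order. For Mmp2 the order after WT acute DSS was WT chronic DSS, WT chronic control, KO chronic control, WT acute control, KO chronic DSS, KO acute DSS and KO acute control, and only KO chronic control and WT acute control were neighbours without overlap. For Mmp11 and Mmp23 every pair of neighbours overlapped, and KO acute DSS had the lowest mean.

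Within groups, 7 of the 10 pairs of members other than Mmp28 passed the threshold by Pearson r from mouse to mouse. P-values were adjusted over all 15 pairs. How many pairs of other genes would pass was not counted. Mmp11 with Mmp14 (r = 0.34, permutation p = 0.0634, adjusted 0.084), Mmp11 with Mmp23 (r = 0.37, permutation p = 0.0301, adjusted 0.0515) and Mmp19 with Mmp23 (r = 0.49, permutation p = 0.0362, adjusted 0.0543) did not pass by Pearson r. By Spearman rho, Mmp11 with Mmp23 passed (rho = 0.44, adjusted permutation p = 0.0354). Mmp2 with Mmp11 did not (rho = 0.40, adjusted permutation p = 0.0555). Over the 37 arrays, after each group's mean was taken off, Mmp2 and Mmp19 correlated at Pearson r = 0.85 and Spearman rho = 0.68. The Pearson p was 1e-05, the smallest that 100000 permutations within groups can give, and the Spearman p 0.00016. Adjusted over 15 pairs the Pearson p was 0.00015, and r was 0.75 without the 2 arrays farthest from the median. Within animal series 1 to 4 the same r was 0.88, 0.96, 0.91 and 0.43. Mmp14 and Mmp19 gave r = 0.71 (permutation p = 0.00035, adjusted 0.00175), rho = 0.47 (permutation p = 0.019) and r = 0.57 without 2 arrays, and in series 4 r was 0.07. Mmp2 and Mmp14 gave r = 0.62 (permutation p = 0.00234, adjusted 0.00702), rho = 0.48 (permutation p = 0.0158) and r = 0.51 without 2 arrays. Their r was 0.75, 0.73 and 0.80 in series 1 to 3 and -0.0017 in series 4, which held every KO chronic mouse, so this relation was not seen in that series. The 5 pairs with Mmp28 had r between -0.40 and -0.27, and none passed after adjustment. Their r was negative throughout series 1 and 2 but lay between 0.14 and 0.52 in series 3. Mmp14 with Mmp28 gave rho = 0.03, r = 0.14 without 2 arrays and r = 0.61 in series 4. All arrays share tissue and platform, and the mix of cell types in each mouse was not taken off.

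By likeness of log2 signal over the 37 arrays, the genes closest to Mmp2 were Igfbp7 (r = 0.96), encoding a secreted binding protein of insulin-like growth factors, Tgfbr2 (r = 0.96), a receptor of transforming growth factor beta, and Bgn (r = 0.95), the matrix proteoglycan biglycan. Closest to Mmp14 were Pde4b (r = 0.94), a cyclic AMP phosphodiesterase, Sh3pxd2b (r = 0.94), a podosome scaffold protein, and Tgfb1 (r = 0.94), a growth factor. Closest to Mmp19 were Medag (r = 0.98), Crispld2 (r = 0.98) and Gpm6b (r = 0.97), and to Mmp23 Pcolce (r = 0.90), an enhancer of procollagen processing, Pacs1 (r = 0.90) and Pknox2 (r = 0.90). Mmp11 was closest to Arhgap6 (r = 0.86), Tns2 (r = 0.85) and Htra3 (r = 0.85), a secreted serine protease. For Mmp28 the closest were Eya2 (r = 0.87), a transcriptional coactivator, Lpo (r = 0.86), lactoperoxidase, and Cd177 (r = 0.85), a surface protein best known from neutrophils. After group means were taken off, r for these genes was 0.88 to 0.94 with Mmp2 and 0.60 to 0.66 with Mmp11. It was 0.81 to 0.89 with Mmp14 and 0.91 to 0.97 with Mmp19. With Mmp23 it was 0.82 to 0.85, and 0.68 for each of the 3 with Mmp28. All arrays share tissue and platform, and these values are descriptions without a test.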

How the data were processed

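Affymetrix Mouse Gene 1.0 ST arrays were hybridized with colon RNA, 1 array for each of 37 mice. The authors deposited log2 values per transcript cluster, and the submitters' processing notes name RMA (robust multi-array average) with no version. The base, which the notes leave out, was taken as 2 because values run between 3.03 and 14.96. Precision is limited by the 3 to 6 arrays in a group. Of 35511 clusters, 21789 carried 1 symbol. The cluster with the highest mean was kept per gene, which left 19938 genes, and each measured member had 1 cluster. Mmp15 was not analysed here.

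One linear model with 8 group means was fitted to all arrays (limma 3.58.1 in R 4.3.3, 29 residual and 3.18 prior degrees of freedom) and 12 comparisons were drawn from it. P-values are two-sided, with Benjamini-Hochberg adjustment over all genes. The fit was tested on simulated data. Replicates were read as separate mice, since each title carries its own animal number. Animal series were tried as covariate and alone. Other alternatives were the prior, filter, cluster choice, array weights, cyclic loess, samples in the fit and leaving out arrays.

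The genes named are the members, Timp1 to Timp4, Reck, Furin and, per member, the 3 genes with the highest correlation over the arrays, with predicted symbols skipped. The members and lists were chosen with earlier results of these data known. Promoters are from RefSeq, build GRCm38.p6.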

Additional observations from a re-analysis of the deposited data

Results flagged for a closer look

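In 1 of 36 member and group sets with 4 to 10 arrays, 1 array lay far from the others: Mmp2 in KO chronic control replicate 2, at a log2 signal of 11.70, against 11.13 to 11.24 in the other 4. Chance alone marks about 1 such set in 20.

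The DSS effect differed between KO and WT mice in the acute phase for Mmp2 (-1.46 on the log2 scale) and Mmp14 (-0.94), and in the chronic phase for Mmp28 (-0.79), by the interaction test in limma. In WT mice the chronic DSS effect differed from the acute one for Mmp2 (-1.17), Mmp11 (-0.43), Mmp14 (-0.66), Mmp19 (-1.73) and Mmp28 (0.58).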

How the results depend on the processing

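No passing difference changed direction in any alternative tried. Over all settings other than leaving out 1 array, the number of members passing was alike in 92 recounts, larger in 8 and smaller in 4. Alike means within 1.5 times or 0 in both fits, and 0 against 0 describes no passing result. Calls of single members in these settings were kept in 168 cases and lost in 16. Leaving out 1 array kept such calls in 211 cases and lost them in 48. Its recounts were alike in 117 cases, larger in 5 and smaller in 26. With array weights the counts were 2 for KO against WT with chronic DSS (Mmp2, Mmp28), 2 among acute controls (Mmp11, Mmp28), 1 among chronic controls (Mmp28), 4 for the acute interaction (Mmp2, Mmp11, Mmp14, Mmp19) and 2 for the chronic interaction (Mmp14, Mmp28). For KO against WT with chronic DSS, Mmp2 made the count 1 without the dimmest 33.3% of genes and 1 with all clusters tested separately. Testing all clusters gave 3 members (Mmp2, Mmp11, Mmp19) for the chronic against the acute effect in WT. Fitting the compared groups alone gave 1 member (Mmp19) among acute controls and 0 for the acute interaction. Without WT acute DSS replicates 1 and 3 together, 0 members passed for the acute interaction and 0 for the chronic against the acute effect in WT. The causes were not tested. Leaving out 1 array at a time gave 4 to 6 members for acute DSS in WT, 0 to 1 for KO against WT with chronic DSS, 0 to 1 among chronic controls, 2 to 4 for the acute interaction, 0 to 1 for the chronic interaction and 1 to 5 for the chronic against the acute effect in WT. The count of 1 for that last comparison came without WT acute control replicate 2. Shares of all genes passing in these settings are not given here, so the counts describe the members alone. No paired analysis was possible because replicate numbers follow accession order and each array is a different mouse. The small acute control groups, with 3 arrays each, limit every acute comparison that uses them.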
